A study of Homo sapiens with 27 samples.

Results

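The transcription factor p53 switches on genes of growth arrest, cell death and repair when DNA or metabolism is disturbed. MDM2 is an E3 ligase that marks p53 for destruction and is itself a p53 target, and MDM4 is a related protein that holds p53 inactive. Measured here were 8 transcripts of this pathway, chosen by symbol from the 13523 rows of the deposited table: the inhibitors MDM2 and MDM4, and the targets GDF15, TP53INP1, ZMAT3, BTG2, TNFRSF10B and TP53I3. All 8 symbols were found and all 8 passed the filter on low values. The symbols were listed with earlier results of these data known, and p53 itself was not analysed here, so each name says only what the gene is known for.

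The samples were 501mel, a human melanoma line with high MITF (per the study's methods, short tandem repeat typing matches 624 mel). Unedited cells (WT) were non-treated, were held in HBSS (a glucose saline that lacks amino acids) for 12 h, or were given 250 nM Torin, an inhibitor of the growth kinase mTOR, for 12 h. Cells without TFE3 (TFE3 KO), without TFEB (TFEB KO) or without both (DKO) were kept for 12 h as controls or with Torin, and HBSS was given to WT cells only. TFE3 and TFEB are relatives of MITF whose presence in the nucleus mTOR restrains in fed cells. In 501mel without Torin, the study nevertheless found TFE3 largely nuclear and tagged TFEB bound to the genome. Each knockout is 1 clone made with Cas9, so genotype and clone cannot be told apart, and the WT control is labelled non-treated where the knockout controls are labelled 12 h. The labels number 3 libraries in each of 9 groups and do not say whether they were separate cultures, so p-values measure only the spread between these libraries, which may be technical. RNA was bulk RNA, in which fewer cells with a transcript and less of it per cell cannot be told apart.

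All 13523 genes had the same value in the column labelled WT HBSS replicate 3 and in that labelled WT Torin replicate 1. One library cannot belong to both groups, so this column was left out of both, and WT HBSS and WT Torin have n = 2 while the other groups have n = 3. In 7 of the 8 members its value lay nearer the WT HBSS mean than the WT Torin mean. Library depth was 4147050 to 6526392 reads, and the limit that a count of 0 allows, 3 reads, equals 0.460 to 0.711 on the scale used below. The summed level of 7 melanocyte lineage markers was 5123 to 14453, and 2 of 12 markers of other cell types were in the table, with sums of 0.208 to 6.62 (COL1A1 and LUM at 0 in at least 1 library each). As a check of the edits, TFE3 was 24.0 ± 0.285 (SD, n = 3) in WT control, 6.30 ± 1.27 (SD, n = 3) in TFE3 KO control and 6.35 ± 0.470 (SD, n = 3) in DKO control. TFEB was low in controls, at 3.25 ± 0.827 (SD, n = 3) in WT, 1.11 ± 0.485 (SD, n = 3) in TFEB KO and 0.681 ± 0.764 (SD, n = 3) in TFE3 KO. In DKO control it was 0.661 ± 0.457 (SD, n = 3). TFEB was thus lower than in WT also in TFE3 KO (log2 fold change -1.41, adjusted p 0.00185, limma). MITF was lower in DKO control than in WT control, at 555.5 ± 34.9 against 761.7 ± 37.3 (SD, n = 3 each; -0.46, adjusted p 1.79e-07, limma). In the single knockout controls MITF was 682.3 (TFE3 KO) and 713.4 (TFEB KO).

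Values are normalised read counts, the authors' CPM after division by a factor specific to the library. These were 3′ end libraries, in which a transcript gives reads from its end alone, so levels carry no factor of gene length. Log2 fold changes and their SE come from limma on log2(value + 1) across 13052 genes, which draws changes of low genes towards 0. A gene passed, and is said to have risen or fallen, at a Benjamini-Hochberg adjusted p under 0.05.

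The p53 response element is made of a pair of half-sites. No exact match to the full element or to a half-site was found in the 10 RefSeq promoter windows of 6 members (hg38, GRCh38.p14, 250 bases before to 50 after the start), and the half-site was present in 6.63% and the full element in 0.0285% of 35116 such windows. After this result, the stretch with the fewest mismatches over the 20 bases of the element, with a spacer of 0 or 1, was taken in each window. The sites below belong to MDM2 and GDF15, the members nearest to the element and those whose levels fell under Torin, and the capitals mark the 20 bases compared.

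MDM2: agctGGTCAAGTTCAGACACGTTCcgaa
GDF15: gcacAGCCATGCCCGGGCAAGAACtc

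The MDM2 site lies at chr12:68808919-68808946 on the + strand, 94 to 75 bases before an internal start within the gene (68808177 to 68845544), and has 2 mismatches. As few or fewer were found in 1.34% of windows, and the windows at the outer MDM2 starts had 5 at best. MDM2 had 4 windows, of which the best is shown, and this share is per window and not per gene. The GDF15 site lies at chr19:18386182-18386207 on the + strand, 29 to 48 bases after the start, and has 3 mismatches, with as few or fewer in 9.75% of windows. The best stretches of BTG2 and ZMAT3 had 4 mismatches, with as few or fewer in 41.3% of windows, and those of MDM4 and TP53I3 had 5, with as few or fewer in 85.6%. The E-box CACGTG, which MITF, TFE3 and TFEB can bind, was present in 7.26% of all windows. Its longer MITF and TFE form (a T, then CACATG or CACGTG, then an A) was present in 1.97%, and the ATF4 composite element in 3.62%. None of these, searched on both strands, was in a window of the 6 members. A match is a description of letters, and its absence says nothing about the factor.

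**Figure D1:**
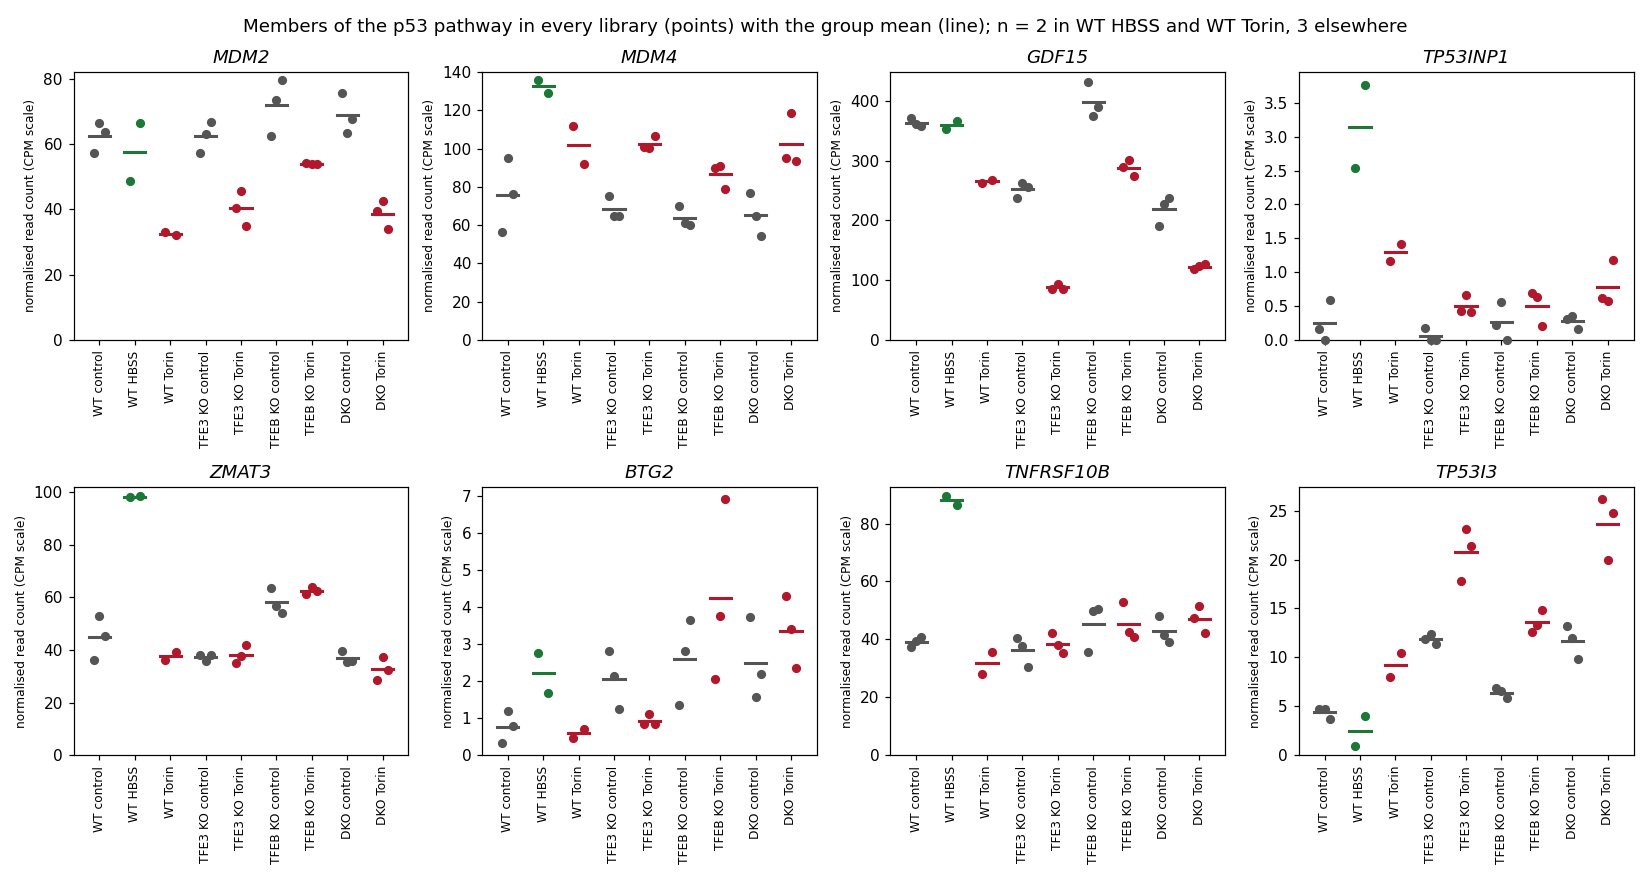
Normalised read count (CPM scale, linear axes from 0) of the 8 members in the 25 libraries used, with 1 point per library and a line at each group mean. ZMAT3 and TNFRSF10B are highest in WT HBSS, at 98.0 and 98.4 and at 89.5 and 86.4, GDF15 is lowest in TFE3 KO Torin, and TP53I3 is highest in DKO Torin and TFE3 KO Torin.

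WT cells held in HBSS were compared with WT controls first. Of the 8 members, 5 rose in HBSS against 23.6% of all tested genes, and 1 fell against 24.7%. Among those that rose, 3 changed by at least 2-fold (1 or more on the log2 scale), where 6.90% of all genes rose that far. The members that rose were the death receptor TNFRSF10B, the RNA-binding protein ZMAT3, the autophagy and stress protein TP53INP1, the p53 inhibitor MDM4 and the antiproliferative gene BTG2. The median log2 fold change of the 8 members was 0.85, beside -0.026 for all tested genes.

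TNFRSF10B (chromosome 8, 23020133 to 23069031, - strand) encodes a receptor for the death ligand TRAIL. It was 37.3, 39.4 and 40.8 in the WT controls and 89.5 and 86.4 in HBSS, a log2 fold change of 1.15 (SE 0.14, adjusted p 3.58e-09, limma). Each HBSS library stood above every control. ZMAT3 (chromosome 3, 178960121 to 179072215, - strand), a zinc finger protein that binds RNA, was 36.2, 52.9 and 45.3 in the controls and 98.0 and 98.4 in HBSS. Its log2 fold change was 1.13 (SE 0.13, adjusted p 3.44e-10, limma), again without overlap. MDM4 (chromosome 1, 204516379 to 204558120, + strand) was 56.5, 94.8 and 76.1 in the controls and 136.0 and 128.9 in HBSS. The controls spread widely, yet the groups did not overlap, and the log2 fold change was 0.83 (SE 0.15, adjusted p 2.6e-05, limma).

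TP53INP1 (chromosome 8, 94925972 to 94949378, - strand) was seen in few reads. It had 1, 0 and 3 reads in the WT controls and 11 and 18 in HBSS, values of 0.164, 0 and 0.585 against 2.53 and 3.77. The control libraries lay at or under the limit of 3 reads, and pooled reads gave a ratio of 12.9 with an exact 95% interval of 4.54 to 50.6 that covers counting error only. The fitted log2 fold change was 1.74 (SE 0.31, adjusted p 5.93e-06, limma). BTG2 (chromosome 1, 203305491 to 203309602, + strand) had 2, 6 and 4 reads in the controls and 12 and 8 in HBSS, a pooled ratio of 2.97 (1.38 to 6.66). Its log2 fold change of 0.87 (SE 0.34, adjusted p 0.0319, limma) no longer passed without WT control replicate 1 (adjusted p 0.134), WT control replicate 3 (0.0517) or WT HBSS replicate 1 (0.267), nor with the duplicated column kept under Torin (0.110).

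TP53I3 (chromosome 2, 24077433 to 24085861, - strand), a quinone oxidoreductase, fell. It was 4.77, 4.75 and 3.71 in the controls and 0.920 and 3.98 in HBSS, so the groups overlapped, and the log2 fold change was -0.80 (SE 0.24, adjusted p 0.00458, limma). This rested on WT HBSS replicate 1, without which it was -0.11 (adjusted p 0.757), and it did not pass with edgeR (adjusted p 0.0678) or DESeq2 (0.0728) on the recovered reads, nor with the duplicated column kept under Torin (0.107). MDM2 (chromosome 12) was 57.2, 66.5 and 63.8 in the controls and 48.8 and 66.3 in HBSS, which overlapped (log2 fold change -0.13, SE 0.13, adjusted p 0.427, limma). GDF15 (chromosome 19, 18374731 to 18389176, + strand), a secreted stress cytokine of the TGF-beta family, was 371.6, 361.4 and 358.5 in the controls and 352.5 and 365.8 in HBSS (-0.02, SE 0.08, adjusted p 0.878, limma).

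Inhibition of mTOR with Torin gave another set of changes, and 4 members moved alike in all 4 genotypes. MDM2 and GDF15 fell, and MDM4 and TP53I3 rose, each with an adjusted p under 0.05 in every genotype. The share of all tested genes that moved alike in every genotype was not counted, so this agreement is not called particular to the members. In WT, 3 members rose against 20.5% of all tested genes and 2 fell against 23.4%. In TFE3 KO, 2 rose against 25.4% and 2 fell against 26.0%. In TFEB KO, 2 rose against 17.4% and 2 fell against 21.0%, and in DKO, 2 rose against 25.4% and 2 fell against 26.2%. With 8 members, counts of 2 or 3 lie near these shares, so the counts alone are not a result about the members. Their median log2 fold change was -0.18 in WT, 0.061 in TFE3 KO, 0.18 in TFEB KO and 0.24 in DKO. ZMAT3, BTG2 and TNFRSF10B passed in none of the genotypes.

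MDM2 was 33.0 and 32.0 in WT Torin, below the 3 WT controls (57.2 to 66.5). The log2 fold change was -0.92 (SE 0.13, adjusted p 8.61e-08, limma). In TFE3 KO it was 57.2, 63.2 and 66.7 without and 40.5, 45.6 and 35.0 with Torin, and no library of a treated group reached a control of its genotype. In TFEB KO the levels were 62.6, 73.5 and 79.7 without Torin and 54.1, 53.9 and 54.0 with it. In DKO they were 75.7, 63.3 and 67.6 without and 39.4, 42.5 and 34.0 with Torin. By limma, the fall was -0.62 in TFE3 KO (adjusted p 1.21e-05), -0.40 in TFEB KO (0.00469) and -0.82 in DKO (5.8e-08).

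MDM4, the other p53 inhibitor, moved the opposite way. It was 111.8 and 91.7 in WT Torin against 56.5, 94.8 and 76.1 in WT control, which overlapped. The log2 fold change was 0.44 (SE 0.15, adjusted p 0.0158, limma), and it did not pass without WT control replicate 1 (0.25, adjusted p 0.124) or WT Torin replicate 2 (0.30, adjusted p 0.213). In the knockouts the treated and control libraries of MDM4 did not overlap. It rose by 0.58 in TFE3 KO (SE 0.13, adjusted p 0.00047), by 0.44 in TFEB KO (SE 0.13, adjusted p 0.00903) and by 0.65 in DKO (SE 0.13, adjusted p 0.000146, limma). Its Torin levels were 100.7, 100.2 and 106.3 in TFE3 KO, 89.8, 91.1 and 79.0 in TFEB KO, and 95.1, 118.3 and 93.7 in DKO.

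TP53I3 was 7.97 and 10.4 in WT Torin, above the WT controls of 3.71 to 4.77 (log2 fold change 0.91, SE 0.24, adjusted p 0.00161, limma). The WT change did not pass without WT Torin replicate 3 (0.74, adjusted p 0.0554) or with the duplicated column as a Torin library (0.24, adjusted p 0.638). In TFE3 KO it was 11.8, 12.4 and 11.4 without and 17.8, 23.2 and 21.4 with Torin. In DKO the values were 13.2, 12.0 and 9.86 without and 26.2, 19.9 and 24.8 with Torin, and in TFEB KO 6.83, 6.56 and 5.80 without and 12.6, 13.3 and 14.9 with it. Every treated library was above every control of its genotype, with log2 fold changes of 0.75 in TFE3 KO (adjusted p 0.00277), 0.95 in DKO (0.000206) and 0.98 in TFEB KO (0.000234, limma). With the duplicated column as a Torin library the TFE3 KO change did not pass (adjusted p 0.0854).

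GDF15, the stress cytokine, fell with Torin in every genotype. It was 263.2 and 267.6 in WT Torin, below the WT controls of 358.5 to 371.6 (log2 fold change -0.45, SE 0.08, adjusted p 1.87e-05, limma). In TFEB KO it was 431.5, 375.6 and 390.4 without and 289.5, 301.4 and 273.7 with Torin (-0.47, SE 0.08, adjusted p 2.03e-06, limma). In TFE3 KO it was 238.4, 263.3 and 255.9 without and 85.2, 93.7 and 85.7 with Torin (-1.51, SE 0.08, adjusted p 5.52e-22, limma). In DKO it was 191.5, 227.3 and 237.8 without and 118.4, 123.7 and 126.3 with Torin (-0.82, SE 0.08, adjusted p 6.46e-13, limma). With the duplicated column as a Torin library, the WT value was -0.27 (adjusted p 0.0614). The treated libraries were below the controls in each genotype, and the levels of TFE3 KO Torin and DKO Torin were below those of every other group.

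The Torin response of a knockout less that of WT was then tested, and these 3 comparisons share the WT libraries. GDF15 fell by 1.05 more on the log2 scale in TFE3 KO than in WT (SE 0.11, adjusted p 1.94e-08, limma), and it was the only member of 8 to pass there, where 1.06% of all genes passed. For TFEB KO none of 8 passed against 1.16%, and for DKO none of 8 against 0.506% (limma). The GDF15 difference was -0.37 in DKO (SE 0.11, adjusted p 0.138, limma), which passed without DKO control replicate 1 (-0.46, adjusted p 0.0364), and -0.01 in TFEB KO (SE 0.11, adjusted p 0.975). For MDM2 the difference was 0.52 in TFEB KO (SE 0.17, adjusted p 0.133, limma), 0.30 in TFE3 KO (SE 0.17) and 0.10 in DKO (SE 0.17). For TP53I3 the 3 differences lay between -0.16 and 0.07 with an SE of 0.32 each, and for MDM4 between -0.0036 and 0.20 with an SE of 0.20, so differences of that size could not be detected.

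**Figure D2:**
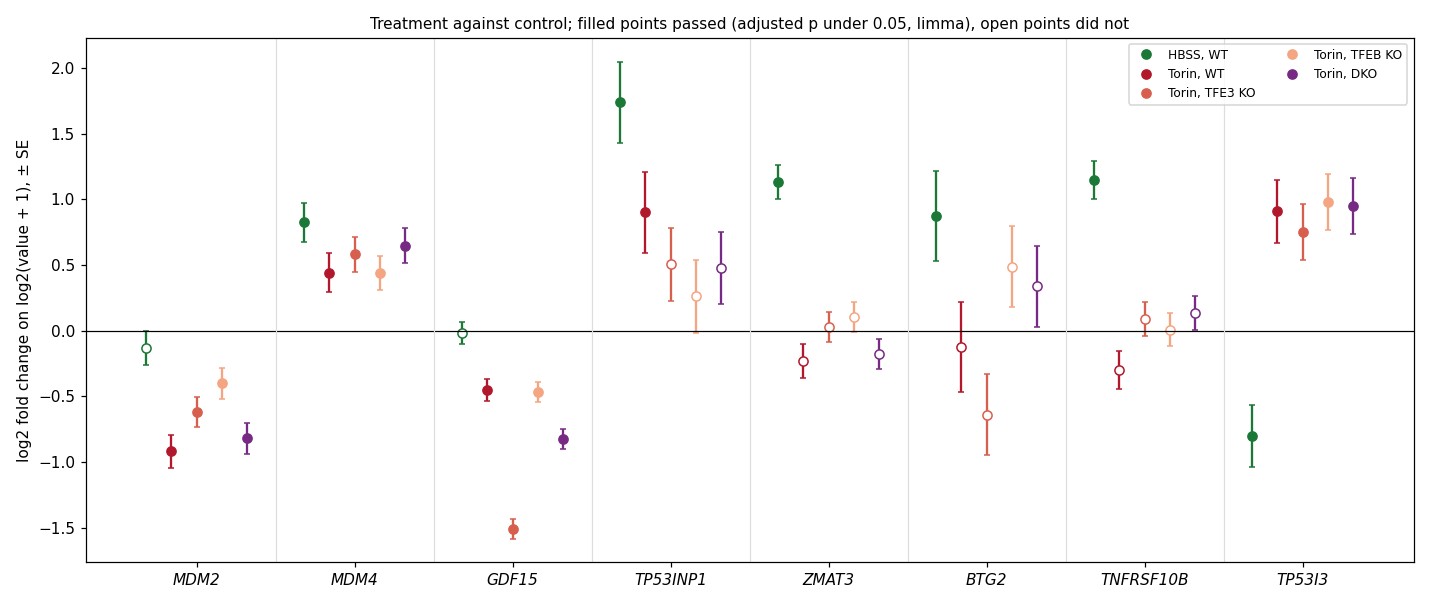
Log2 fold change on log2(value + 1) of each member, treatment against control of the same genotype, with bars of ± 1 SE from limma and filled points for those that passed. MDM2 and GDF15 lie below 0 and MDM4 and TP53I3 above 0 in the 4 Torin comparisons, while HBSS raised ZMAT3 (1.13) and TNFRSF10B (1.15), which passed in no Torin comparison.

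Among the remaining members, TP53INP1 passed under Torin in WT (log2 fold change 0.90, SE 0.31, adjusted p 0.015, limma), on 5 and 6 reads in the Torin libraries. The pooled ratio was 5.27 with an exact 95% interval of 1.56 to 22.7, and the call did not hold without WT control replicate 2 (adjusted p 0.0672) or WT Torin replicate 3 (0.0975). In the knockouts it had 0 to 3 reads in each control library and 1 to 6 in each Torin library, with adjusted p-values of 0.122 in TFE3 KO, 0.479 in TFEB KO and 0.144 in DKO (limma). ZMAT3 was 36.1 and 39.1 in WT Torin, which overlapped the WT controls (log2 fold change -0.23, SE 0.13, adjusted p 0.149, limma), though it passed without WT control replicate 1 (-0.37, adjusted p 0.0213). TNFRSF10B was 28.1 and 35.6 in WT Torin, below the controls of 37.3 to 40.8, and did not pass (-0.30, SE 0.14, adjusted p 0.0875, limma). Without WT Torin replicate 3 it passed (-0.46, adjusted p 0.0417), and with the duplicated column as a Torin library it was 0.20 (adjusted p 0.586). BTG2 had 2 and 3 reads in WT Torin, and its log2 fold change over the 4 genotypes was -0.64 to 0.49. It passed in TFE3 KO without control replicate 3 (-0.85, adjusted p 0.0381) and in TFEB KO without Torin replicate 1 (0.82, adjusted p 0.0497).

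Set directly against each other in WT, HBSS and Torin differed in 7 of 8 members (limma). Of these, 6 were higher in HBSS, where 26.1% of all genes were, and 1 was lower, where 23.1% were. The higher members were TNFRSF10B (log2 difference 1.45, adjusted p 1.39e-10), ZMAT3 (1.36, 3.95e-11), BTG2 (1.0, 0.0247), TP53INP1 (0.84, 0.0356), MDM2 (0.79, 8.23e-06) and GDF15 (0.43, 0.000115). TP53I3 was lower, by -1.71 (SE 0.26, adjusted p 4.36e-07), and MDM4 did not pass (0.38, SE 0.16, adjusted p 0.051). The calls of TP53INP1 and BTG2 were lost with edgeR (adjusted p 0.155 and 0.0556) and with DESeq2 (0.231 and 0.0629). TP53INP1 was also lost without WT HBSS replicate 2 (0.237), WT Torin replicate 2 (0.135) or WT Torin replicate 3 (0.0705), and BTG2 without WT HBSS replicate 1 (0.195), WT Torin replicate 2 (0.121) or WT Torin replicate 3 (0.0525). MDM4 passed, at 0.0129 to 0.0498, without any 1 of WT control replicates 1 and 2, WT Torin replicate 2, TFE3 KO control replicate 1, DKO control replicates 1 and 3 and DKO Torin replicate 2.

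Knockouts were compared with WT next, first without drug. In TFE3 KO, 2 of 8 members passed, where 9.41% of all genes did, in TFEB KO 2 of 8 against 14.6%, and in DKO 3 of 8 against 13.1% (limma). GDF15 was lower in TFE3 KO (252.5 ± 12.8, SD, n = 3) than in WT (363.8 ± 6.86, SD, n = 3), a log2 fold change of -0.53 (SE 0.08, adjusted p 8.56e-07). It was also lower in DKO (218.8 ± 24.3, SD, n = 3; -0.74, SE 0.08, adjusted p 1.57e-10), and no library of these knockouts reached a WT control. TFEB KO controls, at 399.2 ± 29.0 (SD, n = 3), did not differ beyond the threshold (0.13, SE 0.08, adjusted p 0.262). TP53I3 was higher than in WT (4.41 ± 0.606, SD, n = 3) in TFE3 KO (11.9 ± 0.521, SD, n = 3; log2 fold change 1.26, adjusted p 2.61e-05) and in DKO (11.7 ± 1.71, SD, n = 3; 1.23, adjusted p 2.93e-05), without overlap. In TFEB KO it was 6.40 ± 0.533 (SD, n = 3), and the difference of 0.46 (SE 0.21) did not pass (adjusted p 0.150).

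ZMAT3 and BTG2 were higher in TFEB KO controls. ZMAT3 was 63.5, 56.8 and 54.2 there against 36.2, 52.9 and 45.3 in WT (log2 fold change 0.38, SE 0.12, adjusted p 0.0186, limma), and did not pass without WT control replicate 1 (0.24, adjusted p 0.205) or TFEB KO control replicate 1 (0.32, adjusted p 0.105). BTG2 had 6, 15 and 22 reads against 2, 6 and 4 in WT, a pooled ratio of 3.70 (exact 95% interval 1.92 to 7.70). Its log2 fold change of 1.01 (SE 0.31, adjusted p 0.0207, limma) was lost without WT control replicate 1 (adjusted p 0.118), TFEB KO control replicate 2 (0.0716) or TFEB KO control replicate 3 (0.119). In DKO, BTG2 had 24, 9 and 14 reads (pooled ratio 3.43, 1.79 to 7.11; log2 fold change 0.97, adjusted p 0.0266, limma), and was lost without WT control replicate 1 (0.137), WT control replicate 3 (0.0613) or DKO control replicate 1 (0.180). With the duplicated column kept under Torin, none of these passed (ZMAT3 0.343, BTG2 0.127 in TFEB KO and 0.154 in DKO). MDM2, MDM4, TP53INP1 and TNFRSF10B passed in no knockout control. Without WT control replicate 1, the lowest for MDM4 and ZMAT3, the MDM4 difference passed in TFEB KO (-0.42, adjusted p 0.0181) and in DKO (-0.39, 0.0231), and that of ZMAT3 in TFE3 KO (-0.38, 0.0395) and in DKO (-0.40, 0.0226).

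The single knockouts differed from each other in 3 of 8 members, where 29.9% of all genes passed (limma). TFE3 KO was lower than TFEB KO in GDF15 (log2 difference -0.66, SE 0.08, adjusted p 2.01e-09) and ZMAT3 (-0.63, SE 0.12, adjusted p 3.51e-05), and higher in TP53I3 (0.80, SE 0.21, adjusted p 0.00317). In these the libraries did not overlap, and the TP53I3 call was lost with the duplicated column kept under Torin (adjusted p 0.113). TNFRSF10B (-0.31, SE 0.13, adjusted p 0.0648) did not pass, and passed with edgeR (adjusted p 0.0353) or without control replicate 1 of TFEB KO (0.00764) or of TFE3 KO (0.0393).

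Under Torin, 2 of 8 members differed between TFE3 KO and WT, where 9.64% of all genes did, 4 of 8 between TFEB KO and WT against 18.0%, and 4 of 8 between DKO and WT against 12.1% (limma). GDF15 was lower, both in TFE3 KO (log2 fold change -1.58, SE 0.08, adjusted p 5.99e-20) and in DKO (-1.11, SE 0.08, adjusted p 3.2e-14), and 0.12 (SE 0.08, adjusted p 0.364) in TFEB KO. TP53I3 was higher in TFE3 KO (1.10, SE 0.24, adjusted p 0.00126) and DKO (1.27, SE 0.24, adjusted p 0.000159). In TFE3 KO that call was lost without WT Torin replicate 2 (adjusted p 0.0665). For TP53I3 in TFEB KO the libraries did not overlap those of WT, and the difference of 0.53 (SE 0.24) did not pass (adjusted p 0.124). MDM2 was higher in TFEB KO, at 54.0 ± 0.142 (SD, n = 3) against 32.5 ± 0.743 (SD, n = 2) in WT (0.71, SE 0.13, adjusted p 6.74e-05), as was ZMAT3, at 62.5 ± 1.44 (SD, n = 3) against 37.6 ± 2.13 (SD, n = 2; 0.72, SE 0.13, adjusted p 6.38e-05).

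BTG2 under Torin was higher in TFEB KO and DKO than in WT. It had 12, 24 and 34 reads in TFEB KO and 28, 18 and 12 in DKO against 2 and 3 in WT, pooled ratios of 6.96 (2.84 to 22.1) and 5.84 (2.36 to 18.7). The adjusted p-values were 0.000612 and 0.00325 (limma), and the DKO call was lost without WT Torin replicate 2 (0.0583). TNFRSF10B was 52.8, 42.4 and 40.7 in TFEB KO, 47.4, 51.6 and 42.3 in DKO and 28.1 and 35.6 in WT. It passed in both (0.50, adjusted p 0.0121, and 0.56, adjusted p 0.00641, limma), and in neither without WT Torin replicate 2 (0.242 and 0.200), nor in TFEB KO without its Torin replicate 1 (0.0933). With the duplicated column as a Torin library these differences were 0.0017 and 0.061, and neither the calls of BTG2 (adjusted p 0.0822 and 0.119) nor that of ZMAT3 in TFEB KO (0.26, adjusted p 0.495) passed.

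**Figure D3:**
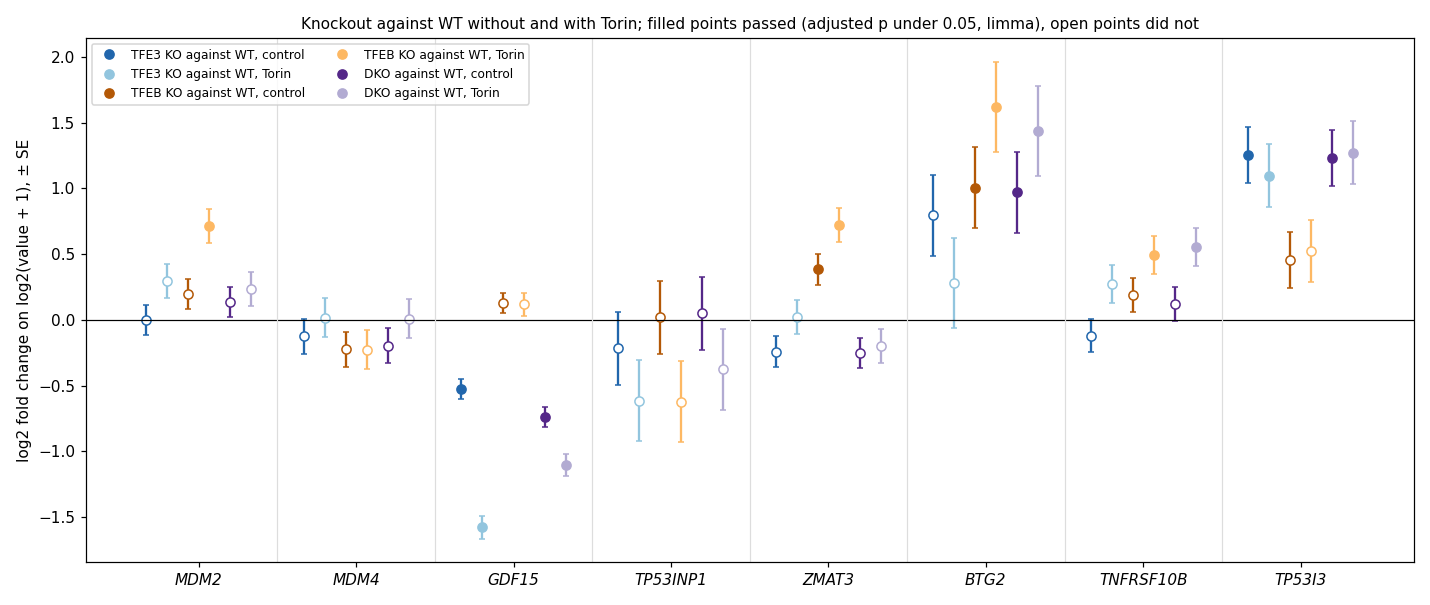
Log2 fold change on log2(value + 1) of each member in a knockout against WT, without drug (control) and under Torin, with bars of ± 1 SE from limma and filled points for those that passed. GDF15 is below 0 and TP53I3 above 0 in TFE3 KO and DKO under both conditions, with GDF15 lowest at -1.58 in TFE3 KO under Torin. TP53I3 is also above 0 in TFEB KO, at 0.46 without drug and 0.53 under Torin, where it did not pass.

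The order of the 9 group means is given as a description, with no test. GDF15 ran from TFE3 KO Torin (88.2) and DKO Torin (122.8) to WT control (363.8) and TFEB KO control (399.2). TP53I3 ran from WT HBSS (2.45) to DKO Torin (23.6). ZMAT3 and TNFRSF10B had a single group apart at the top, WT HBSS, while TFEB KO lay between WT HBSS and all other groups for ZMAT3, at 58.2 ± 4.81 (SD, n = 3) without and 62.5 ± 1.44 (SD, n = 3) with Torin. MDM2 was lowest in WT Torin (32.5) and highest in TFEB KO control (71.9), and MDM4 was lowest in TFEB KO control (63.6) and highest in WT HBSS (132.5). TP53INP1 was highest in WT HBSS (3.15) and BTG2 in TFEB KO Torin (4.25), which overlapped DKO Torin (3.36).

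In the wider p53 target list, about as many genes rose as fell in HBSS, while more fell than rose under Torin in each genotype. Of 55 further listed targets 44 were tested. In HBSS, 10 rose and 11 fell, where 23.6% of all genes rose and 24.7% fell. The median log2 fold change was -0.012, beside -0.026 for all tested genes. Those with the highest values were the death gene BBC3 (log2 fold change 4.16), the stress sensor SESN2 (3.47) and the growth arrest gene GADD45A (1.44), and those with the lowest were the death gene BAX (-1.39), the lysosomal fucosidase FUCA1 (-1.17) and the kinase PLK2 (-0.92). Under Torin, 6 rose and 16 fell in WT, 4 and 19 in TFE3 KO, 4 and 14 in TFEB KO, and 5 and 19 in DKO. Of all genes, 20.5% rose and 23.4% fell in WT, and 25.4% and 26.0% in TFE3 KO. In TFEB KO these shares were 17.4% and 21.0%, and in DKO 25.4% and 26.2%. The median of the targets was -0.11, -0.33, -0.20 and -0.23, beside 0.0013, 0.023, 0.0032 and 0.021 for all genes.

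Of these targets, 3 rose with Torin in each of the 4 genotypes, BBC3 (2.76 in WT), ANKRA2 (1.16) and the DNA repair gene XPC (0.86), and 10 fell in each. How many of all tested genes did either was not counted. The lowest in WT were the death gene PMAIP1 (13.9 ± 0.388, SD, n = 3, to 2.25 ± 1.85, SD, n = 2; -2.32), the metabolic regulator TIGAR (30.4 ± 1.63, SD, n = 3, to 7.54 ± 0.0596, SD, n = 2; -1.88) and the repressor E2F7 (-1.58). In TFE3 KO they were PMAIP1 (-2.52), the nuclease AEN (-2.25) and E2F7 (-1.64). AEN fell further in TFE3 KO than in WT, by 1.0 on the log2 scale (adjusted p 4.89e-05, limma), the only one of the 44 to pass that test. It also passed for DKO less WT (-0.89, adjusted p 0.000474), and TIGAR passed for TFEB KO less WT (1.22, adjusted p 0.00137). BBC3 and PMAIP1, a pair of BH3 proteins that start cell death, thus had opposite signs under Torin.

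Without drug, 2 of the 44 targets were higher and 5 lower in TFE3 KO, 6 and 2 in TFEB KO, and 3 and 2 in DKO. With 44 targets, these counts are read against the 9.41%, 14.6% and 13.1% of all genes that passed in either direction, and nothing is called particular to the list. SESN2 was lower in TFE3 KO (8.03 ± 1.49, SD, n = 3, against 18.1 ± 2.69, SD, n = 3; log2 fold change -1.09, adjusted p 1.61e-05, limma), and PLK2 was lower in TFEB KO (6.04 ± 0.511, SD, n = 3, against 12.3 ± 0.601, SD, n = 3; -0.92). Under Torin, 1 was higher and 5 lower in TFE3 KO, 9 and 5 in TFEB KO, and 2 and 5 in DKO. Of all genes, 9.64%, 18.0% and 12.1% passed in either direction in these comparisons.

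Regulators and partners of p53 moved in both directions. Of 25 listed, 23 were tested, and 9 rose and 8 fell in HBSS (median -0.035). Of all genes, 23.6% rose and 24.7% fell there, with a median of -0.026. The highest regulators were the kinase HIPK2 (1.30), BANP (1.07) and the acetylase EP300 (0.86), and the lowest were the p53 relative TP73 (-1.57), the repair protein TP53BP1 (-1.14) and PPP1R13L (-0.66). Under Torin, 8 rose and 6 fell in WT (20.5% and 23.4% of all genes), and 10 and 8 in TFE3 KO (25.4% and 26.0%). In TFEB KO the counts were 5 and 7 (17.4% and 21.0%), and in DKO 8 and 9 (25.4% and 26.2%). TP73 was the lowest in each genotype, at -1.03, -2.23, -1.41 and -1.90, and the damage kinase ATM (0.72, 0.76, 0.82 and 0.86) was among the 3 highest in each.

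The integrated stress response is the program that ATF4 runs when amino acids run short, and several p53 targets are also known as its targets. The list of 20 such genes used, of which 19 were tested, holds none of the 8 members. The list is a choice of genes, so this does not place the members outside the program. In HBSS, 18 of 19 rose (median log2 fold change 1.65), where 23.6% of all genes rose, among them CHAC1 (3.50), ATF3 (2.20) and ASNS (2.14). Under Torin in WT, 3 rose against 20.5% of all genes and 12 fell against 23.4% (median -0.56). In TFE3 KO under Torin, 5 rose against 25.4% and 9 fell against 26.0%. In TFEB KO, 2 rose against 17.4% and 10 fell against 21.0%. In DKO, 2 rose against 25.4% and 9 fell against 26.2%. In control cells, 10 of 19 were lower and 1 higher in TFE3 KO, with a median of -0.35. In DKO, 8 were lower and 0 higher, with a median of -0.32 (limma). In TFEB KO, 3 were higher and 2 lower. Of all genes, 9.41%, 13.1% and 14.6% passed in either direction in TFE3 KO, DKO and TFEB KO. In HBSS, TNFRSF10B, ZMAT3, MDM4, TP53INP1 and BTG2 rose, TP53I3 fell, and MDM2 and GDF15 (-0.02) did not pass. Under Torin in WT and in TFE3 KO and DKO controls, GDF15 was lower, and TNFRSF10B and ZMAT3 did not pass. For the Torin response of TFE3 KO less WT, 3 of the 19 were higher and 0 lower (median -0.049). Of all genes 1.06% passed there, and GDF15 was lower (-1.05). The part of these listed genes in those results was not tested.

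**Figure D4:**
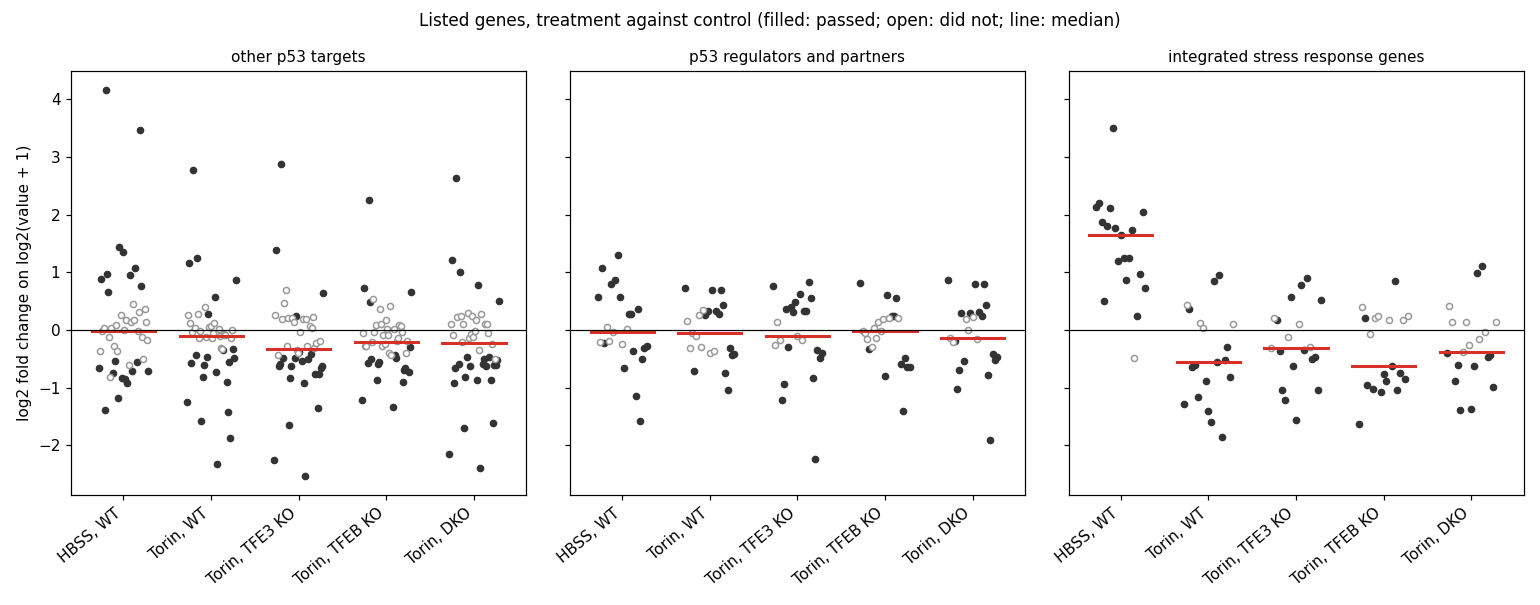
Log2 fold change on log2(value + 1) of the listed genes, treatment against control, in 3 panels (44 further p53 targets, 23 p53 regulators and partners, 19 integrated stress response genes), with 1 point per gene, filled where it passed, and a line at the median. The medians lie near 0 for the p53 lists in HBSS and at 1.65 for the integrated stress response genes.

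The genes most alike to each member over the 9 group means of log2(value + 1), among those with a mean value of at least 5, are given as a description, with no test. RAB21 (Pearson r 0.99) and HDGFRP3 (0.98) were nearest to MDM2, and LIMK2 and MNT (0.98 each) to MDM4. COLGALT1 (0.99) and PDK1 (0.98) were nearest to GDF15, and MCOLN3 (0.99) and MAGEA11 (0.96) to TP53I3. For ZMAT3 these were KCTD7 (0.99) and KPNA6 (0.98), and for TNFRSF10B ATP6AP2 and ZNF317 (0.98 each). For the members with few reads they were USF2 (0.99) and FBXO31 (0.98) for TP53INP1, and CTSS (0.93) and YBX3 (0.92) for BTG2. The points share libraries, and with 9 points and 9855 or 9856 genes searched nothing is read from these values.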

How the data were processed

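Per the study's methods, 3′ end reads (QuantSeq Forward) were trimmed with trim_galore (cutadapt 2.10, FastQC 0.11.9), mapped to hg38 with STAR 2.7.8a and normalised with edgeR. The counter, scaling method and filter are not given in the sources used here. Deposited was a signal for each gene symbol, namely CPM after division by a factor specific to the library. In every library, 100% of the values were whole multiples of the value of 1 read (tolerance 0.1 of a read), so reads were recovered.

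The 8 members, the gene lists and the tests were chosen with earlier results of these data known. Genes at 1 or more in a minimum of 3 libraries (13052, with 471 left out) were fitted with limma 3.58.1 in R 4.3.3 (lmFit, then eBayes with its trend and robust options) on log2(value + 1), with 9 group means and 25 libraries. The 16 comparisons were 2-sided contrasts, adjusted by Benjamini-Hochberg over all tested genes. On recovered reads, edgeR 4.0.16 called 6138 and DESeq2 1.42.0 5956 genes for HBSS against control, where limma passed 6299. Intervals are exact 95% intervals of pooled read ratios, and they and the limit of 3 reads cover counting error only. The fit was tested on simulated data.

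Named from each list were at most the 3 highest and 3 lowest genes that passed in a comparison with a mean of at least 5. One listed regulator is counted with its list and not reported here. AEN and the targets that moved alike in all genotypes were named after their values were seen. The best-match sites were chosen after the exact search. Tried as alternatives were median-of-ratios rescaling, a pseudocount of 0.1, a minimum value of 5 or none, a replicate block, the duplicated column kept in either group, edgeR, DESeq2 and leaving out each library.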

Additional observations from a re-analysis of the deposited data

Results flagged for a closer look

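The Torin response of GDF15 differed between TFE3 KO and WT, by -1.05 on the log2 scale (limma, adjusted p 1.94e-08), and this is given because the test of the difference itself passed. The library that stands under both WT HBSS replicate 3 and WT Torin replicate 1 entered no comparison, and it is given because it lay above every WT control library in 6 of the 8 members. Its values were 133.3 for MDM4, 391 for GDF15, 1.51 for TP53INP1, 99.8 for ZMAT3, 4.36 for BTG2 and 90.1 for TNFRSF10B. The highest WT control values of these genes were 94.8, 371.6, 0.585, 52.9, 1.19 and 40.8. In MDM2 and TP53I3 the library was at 49.2 and 1.51, below the WT controls. GDF15, ZMAT3, BTG2 and TNFRSF10B in this library also exceeded the 2 WT HBSS libraries used, which reached 365.8, 98.4, 2.76 and 89.5. No group had 4 or more libraries, so single libraries were not tested as outliers.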

How the results depend on the processing

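The members' calls changed most when the duplicated column was kept under Torin, though in 7 of 8 members it lay nearer the WT HBSS mean. Its TFEB and MITF levels, given above, also lay nearer those of WT HBSS. Kept as WT Torin replicate 1, it left 3 members passing for Torin against control in WT (5 without it), 0 for TFEB KO against WT in controls (2), 2 for TFEB KO against WT under Torin (4) and 4 for HBSS against Torin (7). TNFRSF10B then changed sign, to 0.20 for Torin in WT, -0.10 for the Torin response of TFE3 KO less WT and -0.062 for that of DKO less WT, none of which passed. Kept as WT HBSS replicate 3, it left 126 of 128 member results on the same side of the threshold. A minimum value of 5 removed TP53INP1 and BTG2, left 1 member for TFEB KO against WT in controls, and changed none of the 96 results it could give. No filter, rescaling by median-of-ratios and a replicate block changed none of the 128 member results, a pseudocount of 0.1 changed 2, edgeR 4 and DESeq2 3. Leaving out each library in turn gave 1 to 2 passing members for TFEB KO against WT in controls, 1 to 2 for TFE3 KO against WT under Torin, 2 to 4 for DKO against WT under Torin, and 0 to 1 for the Torin response of DKO less WT. Over all 16 comparisons, the calls of MDM2 and of GDF15 held in each such fit, and GDF15 gained 1 without DKO control replicate 1. Replicate numbers did not pair the samples: over 92 pairs of same-numbered libraries the correlation of deviations from the group means was -0.19 to 0.16, with 4 above 0.1, and the block moved the count for HBSS from 6299 to 6224 genes. Depth limits TP53INP1 and BTG2, which had 0 to 34 reads per library.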
